A study of Mus musculus with 6 samples.

Results

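Fos, Fosb, Jun, Junb, Egr1, Atf3, Ier3, Dusp1, Zfp36 and Hspa1a are genes of the immediate early and acute stress response, a programme that is known to be switched on while tissue is digested into single cells. They were followed here in cells isolated from mouse lung as type II pneumocytes, the surfactant-producing cells of the alveolus. Every probe set whose annotated gene symbol was exactly one of these 10 names was taken, which gave 11 probe sets, 1 for each gene except Jun, which had 2. They stand for 10 of the 18193 mouse genes that had a probe set of their own on this Affymetrix array, and no probe set shared between several genes named any of them.

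RNA from 2 groups of mice was compared. The Insig1-deleted group consisted of SFTPC-rtTA, (tetO)7CMV-Cre, Insig1 flox/flox, Insig2-/- mice, in which Cre under the surfactant protein C driver removes Insig1 (Insig1 ∆/∆). The control group was Insig1 flox/flox, Insig2-/- and lacked either the rtTA or the Cre transgene. Mice of both groups were 2 months old and are labelled Insig2-/-, and the labels of both give doxycycline from E6.5 to E12.5. There were 3 independent RNA pools per genotype, each on 1 array. The sources used here do not give the number of mice per pool. The Cre system was complete only in the deleted group, so Cre and Insig1 loss cannot be told apart. All 6 pools came from isolated cells, so a response to isolation cannot be told apart from the level in the lung.

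Immediate early genes are transcribed within minutes of a stimulus from factors already present in the cell, and most of their mRNAs are short-lived. Mitogen-activated protein (MAP) kinases, acting through serum response factor and its partners, drive Fos, Egr1 and Junb, while heat shock factor drives Hspa1a. FOS and JUN family proteins pair into the AP-1 transcription factor, DUSP1 switches the MAP kinases off, and ZFP36 speeds the decay of mRNAs with AU-rich elements, which makes the programme self-limiting.

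Array medians lay between 426 and 479 and correlations of log2 signals between arrays between 0.924 and 0.940. Control replicate 3 had the lowest array weight, 0.478. Insig1 averaged 1482 ± 251 in deleted and 2862 ± 519.5 in control pools (SD, n = 3 each), with no overlap, a log2 fold change of -0.95 and an adjusted p of 0.096 (limma). Insig2, labelled as deleted in both groups, was read by 3 probe sets at signals of 595 to 2107 in deleted pools and 685 to 2627 in control pools (limma adjusted p between 0.66 and 0.79). Whether these probe sets lie in the deleted part of the gene was not checked, so they do not test the label. Of 9 type II cell markers, all but Nkx2-1 (signals of 710.5 to 1012.9 over the 6 pools) were bright in all pools. The summed signal of the 9 genes lay between 599700 and 720200 in deleted pools and between 620500 and 728600 in control pools. None of the 9 passed the test or had an unadjusted p under 0.05 (limma). Markers of other cells were measured as well. Of 12 macrophage markers 5 rose (median log2 fold change 1.0), with summed signals of 222300 to 239200 in deleted pools and 145700 to 195700 in control pools. Of 8 airway markers 2 fell, Ccdc153 and Sox2, and 3 were lower at an unadjusted p under 0.05 (limma, median log2 fold change -0.43). The summed signals of the 8 were 347700 to 442800 in deleted pools and 400300 to 541900 in control pools. The airway marker Scgb1a1 had the highest signal on every array, 141333 to 174921 in deleted pools and 142847 to 197205 in control pools. Among endothelial markers 1 of 8 rose, Car4 (median 0.04), and none passed of 8 lymphocyte (0.30), 7 type I (0.03), 8 mesenchymal (-0.09) and 2 neutrophil markers (0.98), with 2 lymphocyte and 2 neutrophil markers higher at an unadjusted p under 0.05. No marker stood at 0 in any pool. Only markers past the filter on low signals were read, and detection calls were not used. This therefore does not show that each cell type was present. In bulk RNA, fewer cells of a type and less RNA per cell cannot be told apart, and the part of these cells in the values of the immediate early genes was not tested.

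Promoter windows are shown for the members with the highest fold changes, Hspa1a and Zfp36, and with the lowest, Dusp1, since each carries one of the elements these genes are known to answer to. The windows hold 250 bases before and 50 after the RefSeq start (build GRCm38.p6), read 5′ to 3′ on the strand of the gene, and lie at chr17:34972107-34972406 (Hspa1a, minus strand), chr7:28379179-28379478 (Zfp36, minus strand) and chr17:26508423-26508722 (Dusp1, minus strand). Capitals mark the matches named after the sequences. A further match, of the CCAAT box in Hspa1a, is left in lower case.
Hspa1a: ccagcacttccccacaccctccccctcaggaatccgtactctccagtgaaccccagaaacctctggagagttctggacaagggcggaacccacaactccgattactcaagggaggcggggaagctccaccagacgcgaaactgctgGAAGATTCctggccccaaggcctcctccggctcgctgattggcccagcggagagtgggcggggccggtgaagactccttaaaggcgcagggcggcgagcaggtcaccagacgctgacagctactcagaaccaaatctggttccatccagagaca
Zfp36: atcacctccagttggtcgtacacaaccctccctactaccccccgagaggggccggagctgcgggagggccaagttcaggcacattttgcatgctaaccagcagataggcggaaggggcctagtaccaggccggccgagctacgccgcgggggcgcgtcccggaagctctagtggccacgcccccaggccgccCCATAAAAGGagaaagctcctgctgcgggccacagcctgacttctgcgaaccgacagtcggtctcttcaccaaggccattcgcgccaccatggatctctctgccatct
Dusp1: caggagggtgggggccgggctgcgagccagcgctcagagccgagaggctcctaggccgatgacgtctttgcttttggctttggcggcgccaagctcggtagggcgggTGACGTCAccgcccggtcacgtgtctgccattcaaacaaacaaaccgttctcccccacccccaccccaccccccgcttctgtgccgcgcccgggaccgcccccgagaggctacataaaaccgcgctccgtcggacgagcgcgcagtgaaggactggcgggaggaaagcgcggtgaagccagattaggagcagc

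The capitals are GAAGATTC in Hspa1a, starting at base -104, a paired unit of the heat shock element; CCATAAAAGG in Zfp36 at base -58, a CArG box of the kind serum response factor binds; and TGACGTCA in Dusp1 at base -143, the cAMP response element. Motifs were searched on both strands. The window of Egr1 was not among the 9 member windows examined, so its motifs are not known here. GAANNTTC was found in 2 of the 9 (Hspa1a and Jun) and in 7.86% of all 32851 promoter windows of this length. The CArG box was in 1 of 9 and 1.63% of all, TGACGTCA in 1 of 9 and 1.79%, and the AP-1 site TGAGTCA in 0 of 9 and 5.20%. None of these matches overlapped another. A match describes letters in this window and was not tested as a binding site.

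None of the 11 probe sets differed between the genotypes by limma (adjusted p between 0.42 and 0.97), while 0.322% of the 27022 probe sets tested did. At an unadjusted p under 0.05 there were 2 of 11, Hspa1a and Zfp36, against 10.2% of all probe sets. Among the other 1337 probe sets in the members' brightness range that share was 14.8%. Without control replicate 3 none of the 11 passed either (limma, lowest adjusted p = 0.21). All 11 passed the filter on low signals, and their signals lay between 6.77% and 60.8% of the highest signal on the same array. That position tells how brightly a probe set read out, not how abundant one transcript was relative to another.

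**Figure D1:**
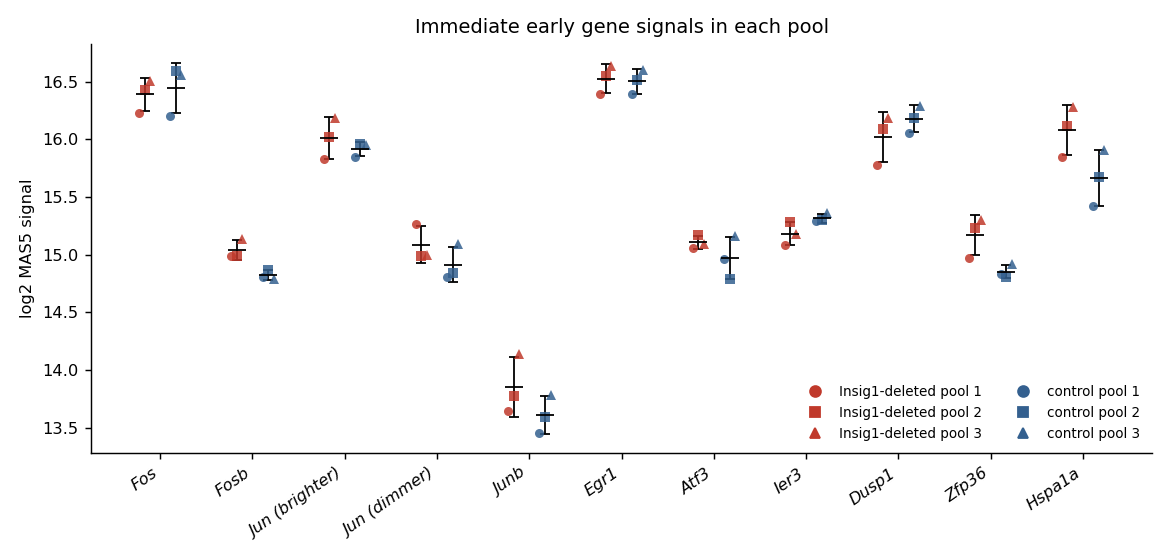
Log2 MAS5 signal (y axis) of the 11 probe sets (x axis) in each of 3 Insig1-deleted pools (red, left of each pair) and 3 control pools (blue, right), with the mean and SD as black bars; heights of different probe sets are not comparable with each other. Fosb, Ier3 and Zfp36 are the probe sets whose groups do not overlap, and in most pairs the circle of pool 1 lies lowest.

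The FOS proteins are the AP-1 partners that cannot bind DNA without a JUN protein. Fos (probe set 1423100_at) had signals of 76967, 88471 and 93082 in the 3 deleted pools, against 75374, 98423 and 96587 in the 3 control pools. Both extremes were control pools, and the deleted pools lay between them. Its log2 fold change was -0.06 ± 0.14 (SE), with a 95% interval from -0.37 to 0.25 and an adjusted p of 0.93 by limma. Fosb (1422134_at), the close relative of Fos, had signals of 32516, 32478 and 36214 in deleted pools and 28664, 30029 and 28407 in control pools. The deleted pools all lay above the controls, by a margin that was small beside the signal itself. The difference was 0.22 ± 0.10 on the log2 scale, 1.16-fold, with an adjusted p of 0.52 (limma, unadjusted p = 0.064).

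Jun encodes the main partner of FOS, and its 2 probe sets ordered the pools differently. The brighter one (1417409_at) had signals of 58075, 66625 and 74527 in deleted pools, against 59143, 63686 and 63096.5 in control pools. Here deleted replicate 1 was the lowest of all 6 pools and deleted replicate 3 the highest. On the dimmer one (1448694_at) deleted pools had signals of 39445, 32630 and 32743, and control pools 28668, 29227 and 34966. Deleted replicate 1 was the highest of all 6 pools on this probe set. The log2 fold changes were 0.09 ± 0.12 on the brighter and 0.17 ± 0.13 on the dimmer probe set (SE, limma adjusted p = 0.85 and 0.70), and the groups overlapped on both.

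Junb, a JUN family protein that is a weaker activator than JUN at many sites, had signals of 12802, 13995 and 18096.5 in deleted pools and 11191.5, 12336 and 14030 in control pools (1415899_at). Deleted replicate 3 stood above the other 5 pools, and control replicate 3 lay above both remaining deleted pools. The log2 fold change of 0.25 ± 0.15 (SE) had an interval from -0.09 to 0.59 and an adjusted p of 0.63 (limma). Junb had the largest SD over deleted pools of the 11 probe sets, 0.26 on the log2 scale.

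Egr1, a zinc finger transcription factor that is a standard readout of MAP kinase activity, had signals of 85927, 95853 and 101822 in deleted pools, against 85886, 94008.5 and 99165 in control pools (1417065_at). The groups covered almost the same range. Its log2 fold change of 0.02 ± 0.12 was the smallest in size of the 11, and the 95% interval of -0.24 to 0.28 corresponds to ratios from 0.85 to 1.22 (limma, adjusted p = 0.97). Atf3, a stress-induced factor of the ATF and CREB family that mostly represses, had signals of 34071, 36814 and 34973 in deleted pools and 31850, 28409.5 and 36519 in control pools (1449363_at). The deleted pools lay close together, within the span of the controls apart from deleted replicate 2, and the log2 fold change was 0.14 ± 0.12 (SE, limma adjusted p = 0.77).

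Dusp1 and Ier3 act in feedback on the response, and both had negative fold changes. Dusp1, the nuclear phosphatase that inactivates MAP kinases, had signals of 56146, 69973.5 and 74754 in deleted pools, against 68248, 74854 and 80035.5 in control pools (1448830_at). Deleted replicate 1 was far the lowest, and the other deleted pools lay within the control range. The log2 fold change was -0.16 ± 0.13, with an interval of -0.46 to 0.14 and an adjusted p of 0.75 (limma). Ier3, a short-lived protein with effects on cell survival, had signals of 34518, 39655 and 37212 in deleted pools and 40166, 40294 and 42055 in control pools (1419647_a_at). The groups did not overlap, with the deleted pools lower, yet deleted replicate 2 came close to control replicate 1. Its log2 fold change was -0.14 ± 0.10 (SE, limma adjusted p = 0.71).

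Zfp36 encodes tristetraprolin, the protein that binds AU-rich elements and recruits the mRNA decay machinery. Its signals were 32013, 38306 and 40353 in deleted pools, against 29116, 28807 and 31018 in control pools (1452519_a_at). The groups did not overlap, and the controls spread less (SD 0.06 on the log2 scale) than the deleted pools (0.18). The log2 fold change of 0.31 ± 0.12, 1.24-fold, had an unadjusted p of 0.027 and an adjusted p of 0.43 (limma).

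Hspa1a encodes the inducible form of the chaperone HSP70. It had the largest fold change of the members, with signals of 59171, 71341 and 79794 in deleted pools and 43848, 52282 and 61648 in control pools (1452388_at). Control replicate 3 lay above deleted replicate 1, so the groups overlapped. The log2 fold change was 0.42 ± 0.16, 1.34-fold with an interval of 1.05 to 1.71, and its adjusted p was 0.42 (limma, unadjusted p = 0.025). Pools of 1 genotype differed by 1.35-fold between the highest and lowest deleted pool and by 1.41-fold between the highest and lowest control pool. These are ranges over pools, not the same measure as the difference between group means. Hspa1b, a nearly identical neighbouring gene named here for that reason after its values were seen, had 84721, 92250 and 97572 in deleted pools and 71266.5, 67847 and 113982.5 in control pools on its brightest probe set. Its control pools spanned its deleted pools on both sides (log2 fold change 0.16 ± 0.19, limma adjusted p = 0.84), and transcripts of these copies may share probes.

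**Figure D2:**
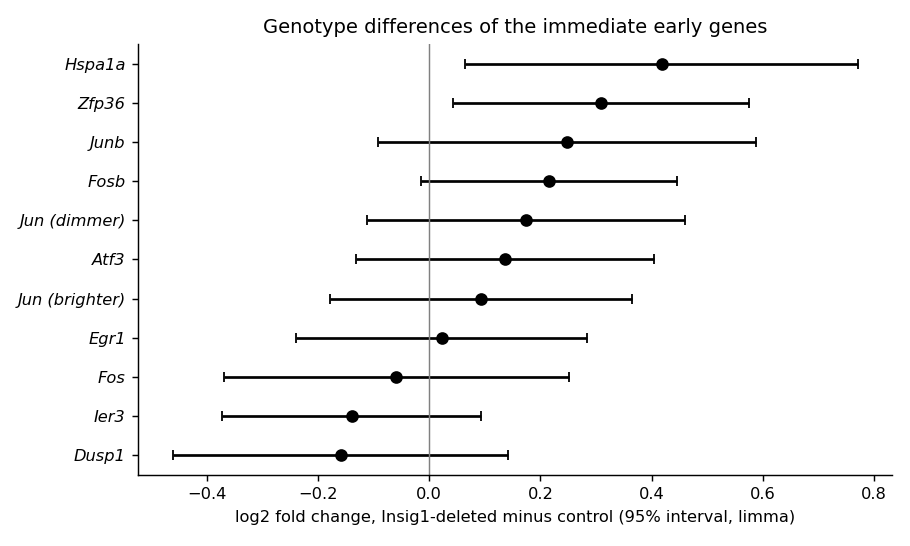
Log2 fold change of each probe set, Insig1-deleted minus control (x axis), with limma's 95% interval as bars, ordered by size (y axis). The intervals of Hspa1a (0.06 to 0.77) and Zfp36 (0.04 to 0.57) lie above 0 before adjustment over all probe sets, and the other 9 include 0.

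Pool-to-pool spread was set against the genotype difference for each probe set. The median pooled SD over pools was 0.134 on the log2 scale and the median size of the fold change 0.159. For all probe sets tested these medians were 0.2387 and 0.1728. For the other 1337 probe sets in the members' brightness range they were 0.1465 and 0.1045. The fold change was smaller than the pooled SD for 4 of 11 probe sets, namely Fos, Egr1, Dusp1 and the brighter Jun, where 62.9% of all probe sets had a difference below their SD. The share of the variance between genotypes had a median of 31.7% for the members, 16.9% for all probe sets tested and 17.2% for the other 1337 probe sets in the same brightness range. Its extremes among members were Fosb (77.7%) and Egr1 (1.39%). Fosb and Ier3 had the tightest groups of the 11, with pooled SDs of 0.071 and 0.076. The groups did not overlap for 3 of 11 (Fosb, Ier3 and Zfp36), against 15.6% of all probe sets and 18.8% of the equally bright ones. Without control replicate 3 they did not overlap for 7 of 11, where Hspa1a, Junb, Atf3 and the dimmer Jun were added, against 27.2% of all probe sets. Fold changes were above 0 for 8 of 11, against 46.2% of all and 52.7% of the equally bright probe sets. With so few members these shares are given as a description.

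**Figure D3:**
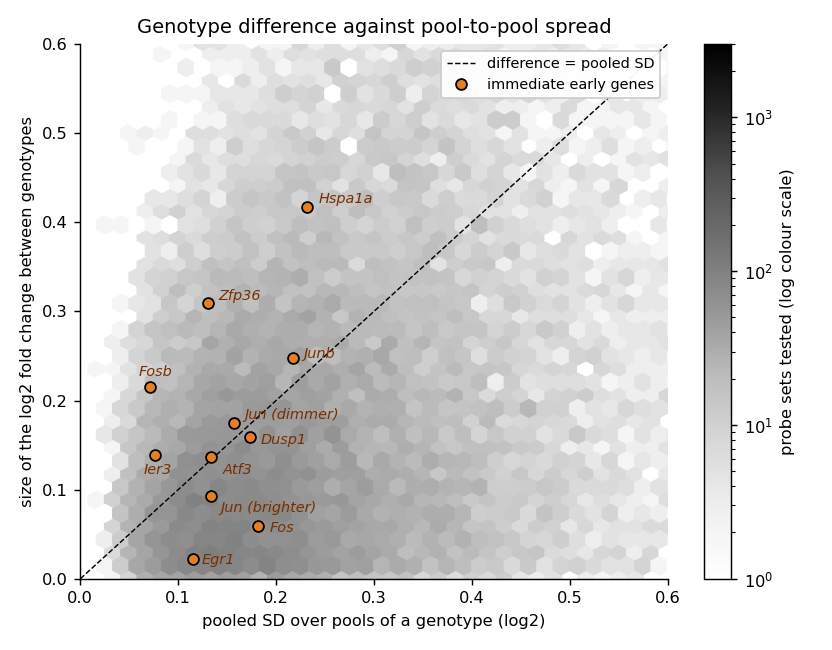
Size of the log2 fold change between Insig1-deleted and control pools (y axis) against the pooled SD over pools of a genotype (x axis), with the 11 immediate early probe sets in orange on the density of all 27022 probe sets tested (grey, log colour scale, cropped at 0.6). Hspa1a has the largest difference and also the largest pooled SD (0.232), and Fosb has the smallest SD (0.071).

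In the deposited values the members ordered the pools in much the same way within each genotype. Deleted replicate 1 was the lowest deleted pool for 9 of 11 probe sets and deleted replicate 3 the highest for 8. Control replicate 1 was the lowest control pool for 8 and control replicate 3 the highest for 8. Around the mean of the 6 pools, the median log2 deviation of the 11 probe sets was -0.09, 0.04 and 0.12 in the deleted pools and -0.13, -0.06 and 0.08 in the control pools. The pools thus lay up to 0.21 apart within a genotype, where the median fold change between genotypes was 0.14. A range over single pools is not the same measure as a difference between group means, so the 2 values cannot be ranked.

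Bright probe sets at large shared part of this order. For the 1337 other probe sets in the members' brightness range the median deviations were -0.04, 0.04 and 0.04 in deleted pools and -0.06, 0.02 and 0.05 in control pools. These were smaller in size than the members' deviations in 5 of the 6 pools and equal to them in deleted replicate 2, and in control replicate 2 they had the opposite sign. Deleted replicate 1 was lowest in its group for 57.1% of them, and control replicate 1 for 41.7%. The 99th percentile of signals on an array was likewise lowest there, at 34529, 36768 and 36954 in the deleted pools and 33405, 36264 and 36700 in the control pools. After quantile normalization, which gives all arrays the same distribution, the median pooled SD of the members was 0.082, against 0.134 as deposited. The groups then did not overlap for 5 of 11, with Dusp1 and Hspa1a added (15.9% of all probe sets), and the lowest adjusted p was 0.18, that of Hspa1a. Its normalized signals were 65258, 67563 and 75617 in deleted pools and 47208, 51535 and 57649 in control pools. Most members did not keep the order of the pools within both genotypes after this step. Hspa1a, Junb and Zfp36 did. Control replicate 1 became the highest control pool for Fosb, the brighter Jun, Egr1, Ier3 and Dusp1. It stayed the lowest only for Fos, Junb and Hspa1a. Deleted replicate 1 stayed the lowest deleted pool for Junb, Ier3, Dusp1, Zfp36 and Hspa1a. For Egr1 replicate 1 became the highest pool of each genotype. Egr1 then had 99822, 93941 and 96651 in deleted pools and 95288, 88668 and 89976 in control pools.

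**Figure D4:**
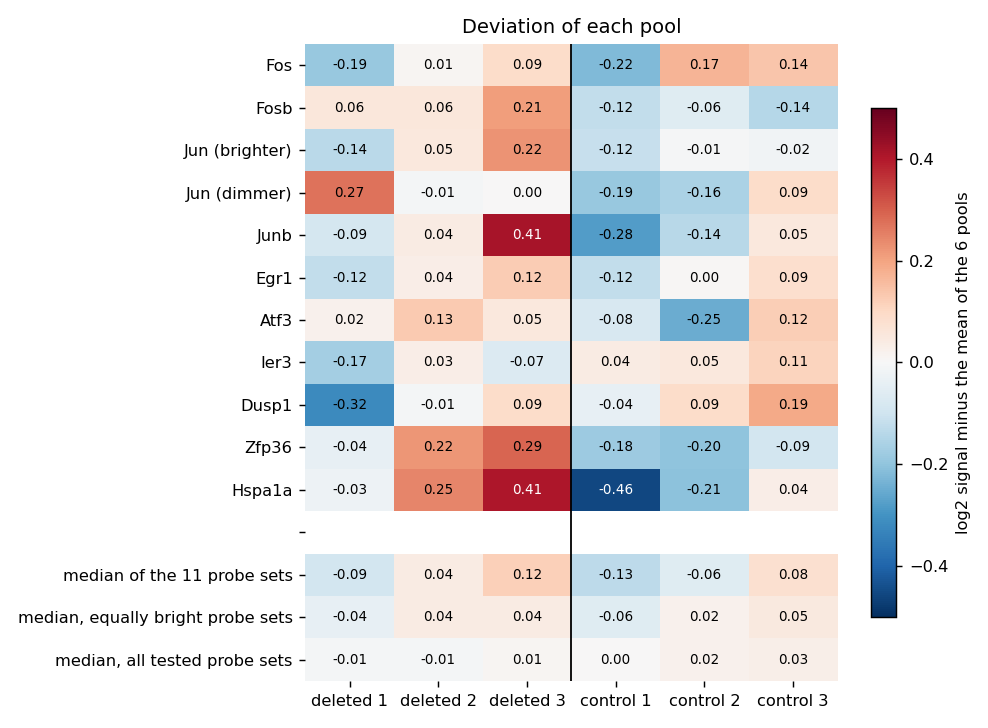
Log2 signal of each probe set minus its mean over the 6 pools (colour and number; rows are probe sets, columns the 3 Insig1-deleted and then the 3 control pools), with medians of the 11 probe sets, of 1337 equally bright probe sets and of all tested probe sets below. Pool 1 of both genotypes is blue for most members, with medians of -0.09 and -0.13.

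Among 1200 other genes that varied over the pools (SD of at least 0.5 on the log2 scale), those whose levels most resembled the mean of the members over the 6 pools were Oasl2 (Pearson r = 0.969), Ifi27l2a (0.967), Gzma (0.935), Ifng (0.932) and Veph1 (0.914). Oasl2 and Ifi27l2a are interferon-inducible genes, Gzma encodes a granule protease of cytotoxic lymphocytes and Ifng encodes interferon gamma. Ifng was dim, at 164.2, 665.2 and 697.8 in deleted pools and 196.8, 197.9 and 402.1 in control pools. Some of these values lay below the signal cutoff of the filter, which was applied to means over pools, so its likeness rests partly on low signals. Ifi27l2a had signals of 1762, 3751 and 5331 in deleted pools, against 1090, 1597 and 2324 in control pools, so that its pools spread further within a genotype than those of any member. Fos alone was most like Aqr (0.977), Oit1 (0.963), Stard6 (0.957), Vmn1r148 (0.953) and Nfatc2 (0.950). Oit1 (158.2 in deleted and 171.1 in control replicate 1) and Vmn1r148 (241.9 in deleted replicate 1) also had signals below that cutoff. The genes named are the best of many over 6 arrays and describe likeness only.

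Related genes were read from the same fit, with 1 probe set per gene, and 0.463% of the 12952 genes so represented passed the threshold. Of 11 other AP-1 and EGR family genes none passed, while at an unadjusted p under 0.05 there was 1 higher and 1 lower (5.93% of all genes were higher and 5.95% lower), and the median log2 fold change was -0.11 beside 0.00 for all genes. Fosl1, a FOS relative of slower induction, had signals of 9693, 10586 and 11189 in deleted pools and 14331, 12304 and 27186 in control pools. Control replicate 3 was far the highest (log2 fold change -0.69 ± 0.25, limma adjusted p = 0.41). The fold change was -0.34 without that pool and -0.91 without control replicate 2. Batf, an AP-1 member of immune cells, stood at 0.41 ± 0.18 (adjusted p = 0.48).

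In the wider immediate early list 2 of 38 genes rose and none fell, and the median was 0.03. They were Nfkbiz, which encodes a nuclear IκB protein, and Tnfaip3, the gene of the ubiquitin-editing enzyme A20, both feedback genes of NF-κB signalling. Nfkbiz had signals of 23032, 21571 and 23301 in deleted pools, against 11561, 11912 and 10226 in control pools. The groups were far apart, 2.02-fold (log2 1.01 ± 0.11, limma adjusted p = 0.0065), while dimmer probe sets gave 0.66 (adjusted p = 0.073) and 0.21 (0.79). The adjusted p of Nfkbiz was 0.064 without deleted replicate 2 and 0.061 without deleted replicate 3. Tnfaip3 had 14163, 16021 and 15897 in deleted pools, against 9228, 7351 and 9692 in control pools (1.76-fold, log2 0.82 ± 0.13, limma adjusted p = 0.045). Its other probe set gave 1.23 with an adjusted p of 0.083, and without deleted replicate 1, 2 or 3 or control replicate 1 the adjusted p was 0.14, 0.27, 0.24 and 0.12. Of 12 macrophage markers 5 rose in the same comparison (median 1.0). Their summed signals, with the unchanged Lyz2 included, were 222300 to 239200 in deleted pools and 145700 to 195700 in control pools. The part of these cells in Nfkbiz and Tnfaip3 was not tested.

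Groups around single members held no gene past the threshold with all 6 pools. Of 12 MAP kinase phosphatase and feedback genes none passed, with 1 higher and 1 lower before adjustment (median 0.05), and Dusp14 had the smallest p, with a log2 fold change of -0.78 ± 0.21 (limma adjusted p = 0.26), followed by Dusp2 at 0.64 ± 0.27. Both calls turned on 1 control pool. Dusp14 passed without control replicate 2 (-1.06, limma adjusted p = 0.0094), and Dusp2 passed without control replicate 3 (1.0, adjusted p = 0.024) and stood at 0.40 without control replicate 2. None of 11 measured genes of AU-rich mRNA decay passed, with 1 lower before adjustment (median 0.07), where the ZFP36 relatives Zfp36l1 and Zfp36l2 stood at -0.24 ± 0.10 and 0.27 ± 0.13. None of 16 heat shock protein and HSF genes passed, nor had any an unadjusted p under 0.05 (limma, median -0.01), with Hspa4l at -0.30 ± 0.19 and the heat shock factor gene Hsf2 at -0.35 ± 0.32. Of 15 genes upstream, from MAP kinases to serum response factor, none passed, with 2 higher and 2 lower before adjustment (median 0.02), where Srf stood at -0.55 ± 0.15 (adjusted p = 0.27) and the kinase gene Map2k3 at -0.47 ± 0.14 (0.29). In signals, Srf had 4844, 4581 and 4623 in deleted pools, against 6937, 5524 and 8314 in control pools, so the groups did not overlap and the controls spread widely. Srf passed without control replicate 2 (-0.70, limma adjusted p = 0.037), with adjusted p between 0.28 and 0.74 when another pool was left out.

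**Figure D5:**
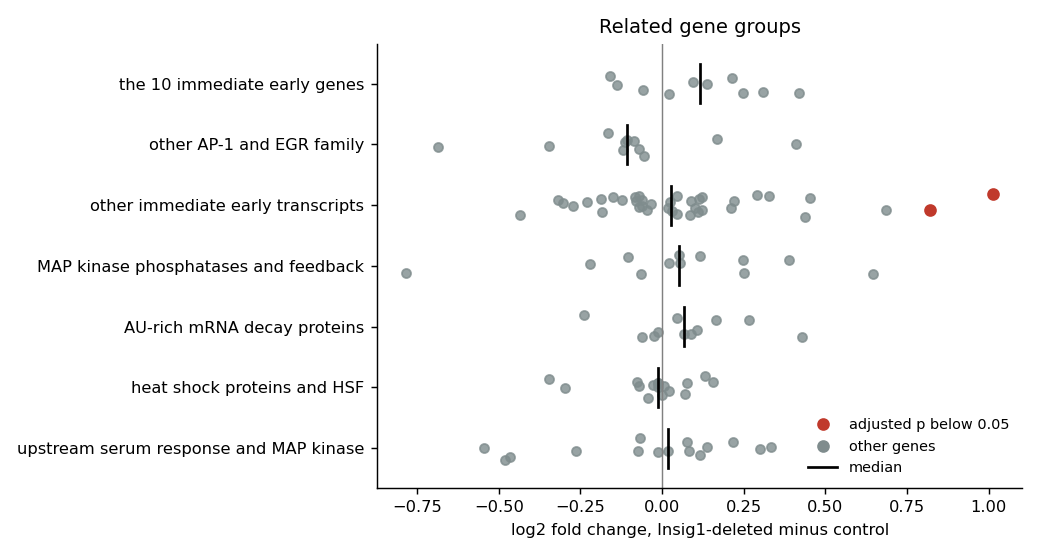
Log2 fold change, Insig1-deleted minus control (x axis), of single genes (points, brightest probe set of each) in the 10 immediate early genes and 6 related lists (rows), with the median as a black bar and genes with an adjusted p below 0.05 in red. Medians lie between -0.11 and 0.07 in the 6 related lists, and Nfkbiz (1.01) and Tnfaip3 (0.82) are the red points.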

How the data were processed

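RNA of 6 pools of isolated type II cells was measured on Affymetrix arrays. The deposited values are linear signal intensities per probe set, made with MAS5 per the submitters' processing notes. The arrays had nearly the same trimmed mean, so the authors' values were already scaled. Detection calls were not used here. Values below 1 were raised to 1 before log2 was taken, with no further normalization. A filter at the 40th percentile of mean log2 signal (8.08, signal 271) kept 27022 of 45101 probe sets (64 were controls). The genotypes were then tested in R 4.3.3 by limma 3.58.1 (lmFit and eBayes, trend by intensity, two-sided tests). P-values were adjusted by Benjamini-Hochberg over all 27022, with a threshold of 0.05. Fold changes are deleted minus control. With 3 pools against 3, the smallest exact two-sided permutation p is 0.1, so none was used. The number of arrays limits the precision.

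Gene names came from the platform annotation, with symbols updated through RefSeq synonyms for the lists. Members, gene lists and cell markers were chosen with earlier results of these data known. Named genes are the members, Insig1, list genes past the threshold or otherwise the 2 with the smallest p, and the 5 most alike over pools. Alternatives covered normalization, transform, trend, weights, filter, replicate block, left-out pools and one row per gene. Figures used matplotlib 3.10.9.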

Additional observations from a re-analysis of the deposited data

How the results depend on the processing

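Under 16 alternatives no member passed the threshold by limma. Of 173 member fold changes recomputed, 167 kept their direction, and the 6 that did not were close to 0. Fos lay between -0.18 and 0.02 with single pools left out and turned to 0.03 with array weights, 0.02 after a shift to a common median, 0.02 without Insig1-deleted replicate 1 and 0.01 without control replicate 2. Egr1 lay between -0.03 and 0.09 with single pools left out and turned to -0.03 without Insig1-deleted replicate 3 and to -0.03 without control replicate 1. Single pools moved other members too, with ranges of 0.10 to 0.35 for Junb, -0.24 to -0.04 for Dusp1, 0.01 to 0.19 for the brighter and 0.08 to 0.27 for the dimmer Jun, 0.05 to 0.23 for Atf3, -0.19 to -0.09 for Ier3, 0.16 to 0.24 for Fosb and 0.24 to 0.41 for Zfp36. Hspa1a ranged from 0.29 to 0.54 over all alternatives (adjusted p from 0.093 to 0.83). Among related genes, single pools moved Hsf2 between -0.64 and -0.16 and Hspa4l between -0.53 and -0.18. Zfp36l2 turned to -0.004 as a mean over probe sets. The median pooled SD of the members was 0.082 with quantile normalization. Their groups overlapped for 8 of 11 probe sets, and for 4 to 8 when single pools were left out, an alternative chosen after seeing the data. The 4 came without control replicate 3, where 27.2% of all probe sets did not overlap.

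The count of all probe sets past the threshold, 87, was less stable. It was 170 with array weights, 4 without an intensity trend, 131 after the shift and 3 to 461 when single pools were left out (3 without Insig1-deleted replicate 2, 461 without control replicate 2). Over the 6 related lists the count of 2 was 1 with no filter, 1 with quantile normalization, 0 without an intensity trend and 0 to 6 with single pools left out (6 without control replicate 2). Without an intensity trend Nfkbiz and Tnfaip3 had adjusted p of 0.081 and 0.22. Nfkbiz stood at 0.054 as a mean over probe sets, and Tnfaip3 at 0.066 with no filter and 0.051 with quantile normalization. The cause was not tested. With the pool number as a replicate block 145 probe sets passed (130 higher, 15 lower), no member did (lowest adjusted p 0.093), and Insig1 had an adjusted p of 0.047. Deviations of same-numbered pools correlated at 0.107, 0.0538 and 0.133, each pool best with its own number, and the labels do not pair the pools.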
